A study of Caenorhabditis elegans with 12 samples.

Results

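The genes described here encode the insulin-like peptides of Caenorhabditis elegans. They were taken by name, as every gene called ins- with a number plus daf-28, which gave 40 of the 20257 genes listed. Of these, 26 reached at least 1 FPKM (fragments per kilobase of transcript, scaled to the library's mapped fragments) in 3 or more of the 12 libraries, and these are described one by one. The libraries were RNA-seq of whole worms, 3 per group, of wild type (strain N2) and glp-1(e2141), each as adults of day 1 (D1) and of day 6 (D6). GLP-1 is a Notch receptor that germline stem cells require, and e2141 is a temperature-sensitive allele, so animals raised at the high temperature make almost no germline. All animals of both genotypes ate OP50 bacteria and grew at 25 °C until D1. The D6 animals of both genotypes were then moved to a lower temperature, which is 20, 21 and 22 °C for replicates 1, 2 and 3 in the labels and 20 °C in the series' design text, so age and this shift cannot be told apart. The labels do not say whether a group's 3 libraries are separate cultures, and p-values therefore measure only how these libraries differ, which may be technical.

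Insulin-like peptides are secreted, mostly by neurons and the intestine, and act on 1 insulin receptor, DAF-2. Some are agonists, which activate the receptor, and others are antagonists. An active receptor signals through the kinases AGE-1, PDK-1, AKT-1 and AKT-2 to keep the transcription factor DAF-16 out of the nucleus, and less signalling prolongs life and favours dauer, a dormant larval stage. Loss of the germline also prolongs life, and that extension needs DAF-16. Peptides need cleavage by proprotein convertases before they are released from dense-core vesicles.

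The libraries held about 17.3 M to 19.5 M fragments (M for 1e6), estimated from the smallest steps between low values. At that depth 1 FPKM stood for about 5.71 to 15.9 fragments of a detected insulin-like gene, whose longest transcripts were 308 to 856 bases, so low values rest on few fragments. Transcripts of glp-1 itself, which e2141 does not delete, were at 64.4 to 68.7 FPKM in wild type D1, 96.9 to 99.3 in wild type D6, 3.21 to 3.39 in glp-1 D1 and 5.44 to 6.69 in glp-1 D6. FPKM is a share of each library's RNA, so the loss of an RNA-rich tissue raises the shares of the others. In whole worms, fewer cells of a type and less RNA per cell cannot be told apart. A list of 18 germline and oocyte genes summed to 7422 to 7668 FPKM in wild type D1 and 9281 to 9863 in wild type D6, against 20.0 to 23.8 in glp-1 D1 and 36.1 to 118.8 in glp-1 D6. Within glp-1 D6 the sum was 118.8 in replicate 1, 36.1 in replicate 2 and 81.9 in replicate 3, so counts that use glp-1 D6 are also given without replicates 1 and 3.

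Of the 14 genes below the detection rule, ins-15, ins-21 and ins-38 were listed at 0 in all 12 libraries. Another 5 (ins-11, ins-16, ins-25, ins-36 and ins-39) never reached 1 FPKM, and 6 (ins-9, ins-12, ins-14, ins-20, ins-35 and ins-37) reached it in 1 or 2 libraries. Just outside the rule lay ins-12, ins-20, ins-35 and ins-37, at or above 1 FPKM in 2 libraries each, with highest values of 1.51, 1.62, 1.25 and 1.45 FPKM. Just inside it lay ins-23, at or above 1 FPKM in 4 libraries with a highest value of 3.39 FPKM. Only 8 genes were at or above 1 FPKM in all 12 libraries, namely daf-28, ins-3, ins-7, ins-17, ins-18, ins-26, ins-27 and ins-28. Genes ins-13, ins-23, ins-31, ins-32 and ins-33 passed the rule through 1 group only, so differences between groups were built into their selection. Genes ins-2 and ins-34 reached 1 FPKM only in wild-type libraries, and ins-8 only in D6 libraries, which built in a difference in the same way.

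Because values are per length, levels can be ordered between genes. In wild type D1 the highest was ins-31 (18.3 to 20.5 FPKM), which did not overlap ins-34 (8.55 to 13.01), while ins-34, ins-17, ins-7, ins-27 and daf-28 each overlapped the next. In wild type D6 ins-19 and ins-7 led with overlapping values (33.01 to 37.4 and 28.7 to 40.3 FPKM), followed by ins-34, ins-2, ins-8 and ins-17, each overlapping the next. In glp-1 D1 the order was ins-7, ins-27 and ins-17, with no overlap between them (27.004 to 29.2, 17.1 to 20.4 and 14.2 to 16.04 FPKM), followed by daf-28, ins-19 and ins-6. In glp-1 D6 ins-19 and ins-7 overlapped at the top (108 to 121 and 94.3 to 136 FPKM), far above ins-17, ins-27 and daf-28, which overlapped each other.

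**Figure D1:**
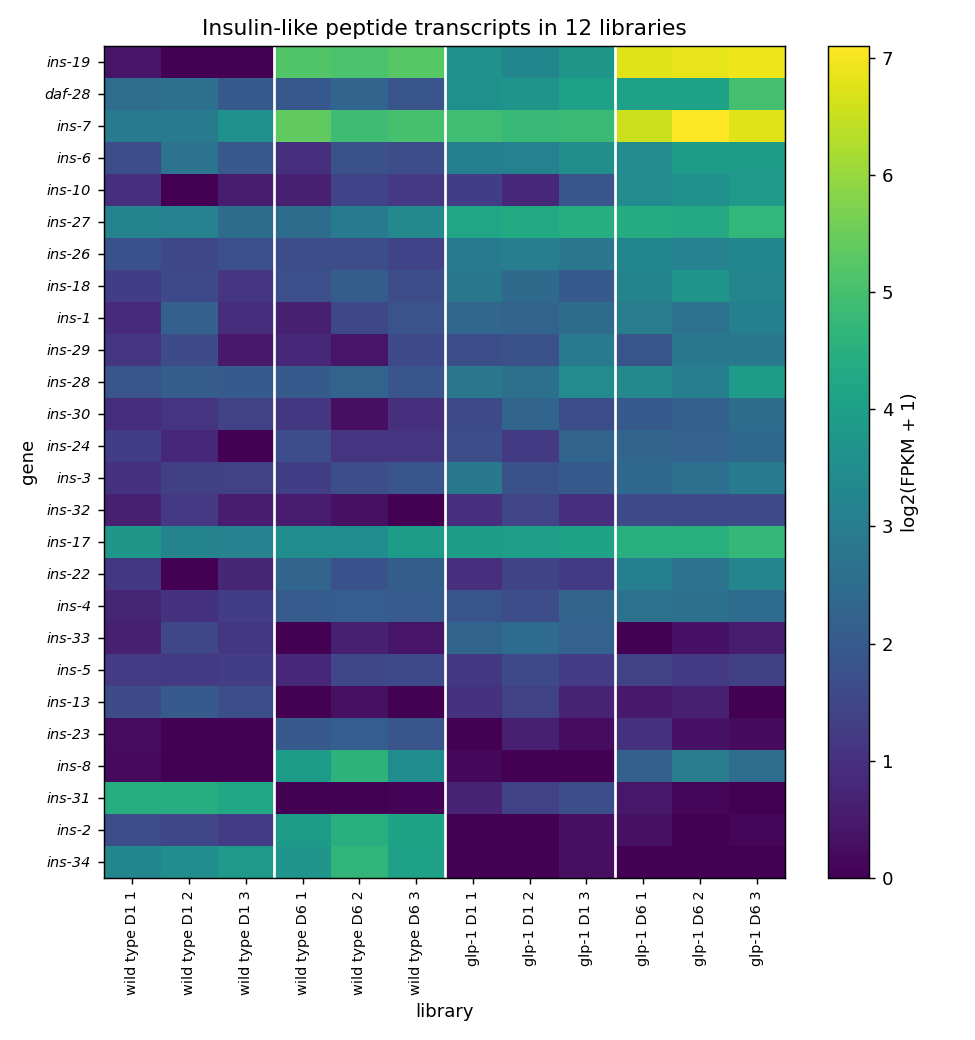
Heat map of log2(FPKM + 1) for the 26 detected insulin-like peptide genes (rows) in the 12 libraries (columns, white lines between groups), with rows ordered by the mean of the genotype differences at D1 and D6. The bright cells of ins-19 and ins-7 in glp-1 D6 and of ins-31 in wild type D1 are the highest values of those groups, while ins-34 and ins-2 are dark in all 6 glp-1 libraries.

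The comparison of glp-1 with wild type asks which peptide transcripts differ when the germline is missing. Tested with limma on log2(FPKM + 1) over 13614 genes, with calls at an adjusted p under 0.05, 18 of the 26 genes were higher and 4 lower in glp-1 at D1. Over all genes 89.4% were called at D1, 41.3% as higher and 48.1% as lower. At D6 again 18 were higher and 4 lower, where 89.8% of all genes were called, 44.4% as higher and 45.4% as lower. With nearly all genes called, a called gene is no rarity here, and the shares of direction are what set the peptide genes beside the rest. The median log2 fold change of the 26 was 0.95 at D1 and 1.17 at D6, against -0.15 and -0.03 over all genes. It was 0.90 and 1.25 for 16 tested neuron genes, 1.37 and 1.97 for 17 body wall muscle genes, and 1.29 and 2.30 for 9 intestine genes. For 4 tested adult epidermis genes it was 1.30 and 0.21, for 2 sensory neuron genes 0.36 and 0.17, and for the germline and oocyte list -6.65 and -6.11. The 3 glp-1 libraries lay above the 3 wild-type libraries for 15 genes and below them for 4 at D1 (41.5% and 48.3% of all genes), and for 18 and 4 at D6 (44.3% and 45.4%). Without the 5 genes that passed through 1 group, 17 of 21 were higher and 2 lower at D1, and 17 were higher and 3 lower at D6. Still among the lower ones were ins-2 and ins-34, which passed through wild-type libraries only, so their genotype difference was also built into selection. Without replicates 1 and 3 of glp-1 D6, 1 library remains there and is assumed to vary like the other groups, which supply the spread. In that fit 15 of the 26 were higher and 4 lower at D6, and ins-4, ins-22 and ins-24 did not reach the threshold (adjusted p = 0.0738, 0.134 and 0.0898), in a test with fewer libraries. The genes higher at both ages numbered 17, and ins-2 and ins-34 were lower at both.

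The size of these differences depends on the scale. An alternative scaled libraries to the mean log2(FPKM + 1) of the tested body wall muscle and neuron genes. On it the medians of all genes moved to -0.72 at D1 and -0.80 at D6. The median of the peptide genes then stood at 0.42 and 0.33, and 7 were called higher and 4 lower at D1, and 10 higher and 6 lower at D6. Higher calls made up 46.2% of all calls at D1 and 49.5% at D6 on the deposited scale, and 31.9% and 36.0% on that scale. Beside most genes below, the muscle and neuron scale is named where it ends or adds a call. Further calls that it ended were the D1 difference of ins-22 (0.20, adjusted p = 0.488) and the fall of ins-33 in wild type (0.0502). The fall of ins-13 in glp-1 was also lost (0.0757). Rises that it added were those of ins-17 in wild type (1.03) and of ins-1 (0.86) and ins-32 (0.63) in glp-1. Genes higher at both ages on both scales were daf-28, ins-7, ins-18, ins-19, ins-26 and ins-27.

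**Figure D2:**
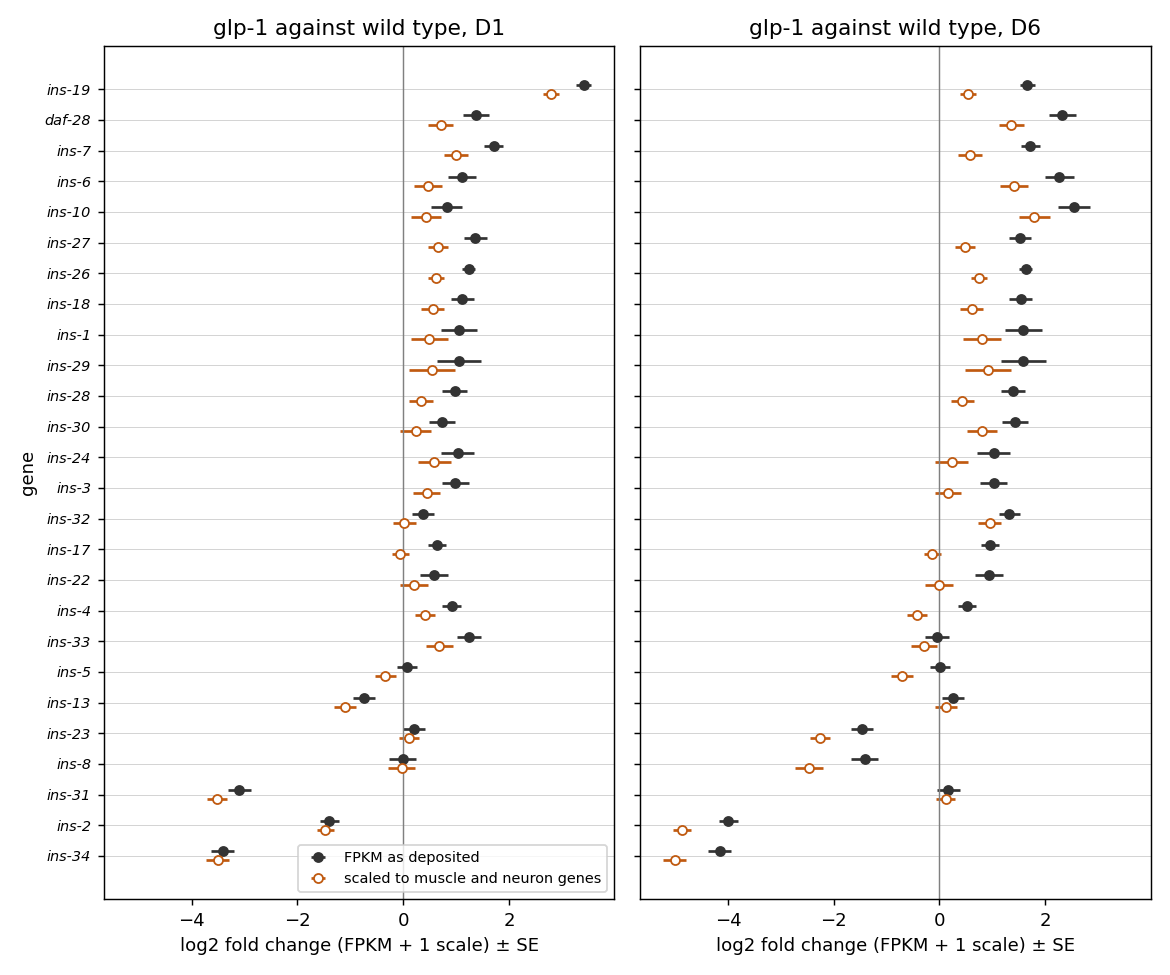
Genotype difference as log2 fold change, glp-1 over wild type (x axis, FPKM + 1 scale, bars are ± SE, 3 libraries in each group) for the 26 genes at D1 (left) and D6 (right), for FPKM as deposited (filled) and for libraries scaled to muscle and neuron genes (open). Most filled points lie to the right of 0, and the open points lie further left, while ins-34 and ins-2 lie far to the left at both ages on both scales.

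Among the agonists, daf-28, ins-6 and ins-4 are known from sensory neurons, where they act against dauer entry or for dauer exit. Transcripts of daf-28 (V:19815133-19816454, WBcel235, plus strand) were at 4.81, 4.999 and 3.05 FPKM in wild type D1, 2.89, 3.98 and 2.58 in wild type D6, 10.8, 11.7 and 15.8 in glp-1 D1, and 15.7, 15.8 and 30.3 in glp-1 D6. All 6 glp-1 libraries lay above all 6 wild-type libraries, with the third glp-1 D6 library the highest. The log2 fold change of daf-28 in glp-1 was 1.38 at D1 (SE 0.25, adjusted p = 0.000148) and 2.33 at D6 (SE 0.25, adjusted p = 8.96e-07). With age daf-28 did not pass in either genotype (log2 fold change -0.34 in wild type and 0.60 in glp-1, adjusted p = 0.253 and 0.0557), although leaving out glp-1 D6 replicate 2 gave an adjusted p of 0.034, glp-1 D6 replicate 1 gave 0.0361, glp-1 D1 replicate 3 gave 0.0381 and wild type D1 replicate 3 gave 0.0471. On the muscle and neuron scale its change in glp-1 was called (0.98, adjusted p = 0.00252).

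Gene ins-6 (II:6000436-6001009, plus strand) was at 2.20, 5.56 and 2.94 FPKM in wild type D1, 0.995, 2.42 and 2.20 in wild type D6, 7.44, 7.66 and 10.4 in glp-1 D1, and 9.76, 14.2 and 13.9 in glp-1 D6. Every glp-1 library was above every wild-type library. The log2 fold change in glp-1 was 1.11 at D1 (SE 0.27, adjusted p = 0.0017) and 2.27 at D6 (SE 0.27, adjusted p = 2.86e-06). On the muscle and neuron scale, the D1 difference of ins-6 was 0.47 and not called (adjusted p = 0.125), and its change with age in glp-1 was called (0.88). In wild type its change with age of -0.64 was not called (adjusted p = 0.0583), and it passed without wild type D1 replicate 1 (0.0212) or wild type D6 replicate 2 (0.0453). The agonist ins-4 (II:5996366-5997008, plus strand) was at 0.666, 1.08 and 1.45 FPKM in wild type D1, 3.16, 3.38 and 3.10 in wild type D6, 2.58, 2.21 and 4.01 in glp-1 D1, and 5.28, 5.21 and 4.63 in glp-1 D6. It was higher in glp-1 at D1 by 0.92 (SE 0.18, adjusted p = 0.00027; 0.41 and adjusted p = 0.0516 on the muscle and neuron scale), and rose with age in wild type by 1.05 and in glp-1 by 0.65 on the log2 scale. At D6 ins-4 was higher in glp-1 by 0.52 on the deposited scale, with groups that did not overlap, but called lower at -0.42 when libraries were scaled to muscle and neuron genes. A list of 12 sensory neuron genes, of which 2 were detected well enough to test, summed to 3.72 to 4.06 FPKM in wild type D1, 5.76 to 8.78 in wild type D6, 7.42 to 10.9 in glp-1 D1 and 14.6 to 19.4 in glp-1 D6, and str-3 was listed at 0 in 3 of these groups. Of those 2 tested genes, 1 was higher and 1 lower in glp-1 at each age. A list of 19 neuron genes, 16 of them tested, had 13 higher and 2 lower at D1 and 14 higher and 2 lower at D6, while their summed FPKM was lower in glp-1 at D1 (566 to 586 in wild type, 492 to 539 in glp-1) and higher at D6 (710 to 754 and 781 to 803). With muscle and neuron scaling, 6 of the 16 were higher and 3 lower at D1 and 9 higher and 4 lower at D6. These 16 genes are among those that set that scale, so their counts on it were in part fixed in advance. Over all genes on the deposited scale, 41.3% were higher and 48.1% lower at D1, and 44.4% and 45.4% at D6. The part of neuronal RNA shares in the values of these peptide genes was not tested.

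The agonist ins-7, known from the intestine, is one of the transcripts that DAF-16 lowers. It lies at IV:9682011-9682845 on the minus strand, and stood at 6.65, 6.56 and 10.8 FPKM in wild type D1, 40.3, 28.7 and 31.8 in wild type D6, 29.2, 27.004 and 27.4 in glp-1 D1, and 94.3, 136 and 108 in glp-1 D6. Wild type D6 and glp-1 D1 overlapped, wild type D1 lay below both, and glp-1 D6 lay above all other libraries. In glp-1 it was higher by 1.71 at D1 (SE 0.18, adjusted p = 1.1e-06) and by 1.71 at D6 (SE 0.18, adjusted p = 9.33e-07), and it rose with age by 1.96 in both genotypes (adjusted p = 2.14e-06 for wild type, 1.67e-06 for glp-1). The difference between the changes with age was 0.00 (SE 0.26). Of 9 intestine genes, 8 were higher and none lower in glp-1 at D1 and 9 were higher at D6 (over all genes 41.3% higher and 48.1% lower at D1, 44.4% and 45.4% at D6). The sums of the intestine genes were 2250 to 3739 FPKM in wild type D1, 2439 to 2774 in wild type D6, 4493 to 5953 in glp-1 D1 and 7024 to 7958 in glp-1 D6. Their part in the level of ins-7 was not tested.

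The antagonists ins-1 and ins-18 lie on IV:10436701-10438412 and I:8147427-8149651, both on the plus strand. Gene ins-18 was at 1.43, 1.97 and 1.17 FPKM in wild type D1, 2.34, 3.30 and 2.22 in wild type D6, 6.23, 4.44 and 3.06 in glp-1 D1, and 8.19, 11.9 and 8.46 in glp-1 D6. It was higher in glp-1 at D1 by 1.12 (SE 0.22, adjusted p = 0.000277) and at D6 by 1.53 (SE 0.22, adjusted p = 1.44e-05), and rose with age in glp-1 by 0.94 (adjusted p = 0.00256). In wild type its increase of 0.52 missed the threshold (adjusted p = 0.0539) although the groups did not overlap, and it passed without wild type D1 replicate 2 (adjusted p = 0.0388), glp-1 D1 replicate 1 (0.0345), glp-1 D1 replicate 3 (0.0338) or glp-1 D6 replicate 2 (0.0462). Gene ins-1 was at 0.796, 3.50 and 0.915 FPKM in wild type D1, 0.548, 1.93 and 2.52 in wild type D6, 4.05, 3.81 and 4.67 in glp-1 D1, and 7.09, 5.36 and 7.45 in glp-1 D6. All glp-1 values were above the wild-type values of the same age, and the second wild-type D1 library was the nearest. The D1 difference of ins-1 was 1.05 (SE 0.35, adjusted p = 0.0118), and it missed the threshold without wild type D1 replicate 1 (adjusted p = 0.0556) or replicate 3 (0.0504). At D6 the difference was 1.59 (adjusted p = 0.000739). Under the muscle and neuron scaling, ins-1 was called at neither age (0.50 and 0.80, adjusted p = 0.214 and 0.0502), while ins-18 was also called as rising in wild type (1.18).

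Among genes with other reported roles, ins-3 and ins-33 act in larval germline proliferation, and fusions of ins-22 are used as a cargo marker of dense-core vesicles. Gene ins-33 (I:13637845-13639311, minus strand) was at 3.86, 4.55 and 3.72 FPKM in glp-1 D1, 0.532, 1.85 and 1.21 in wild type D1, 0, 0.537 and 0.332 in wild type D6, and 0, 0.280 and 0.441 in glp-1 D6. It was higher in glp-1 at D1 by 1.24 (SE 0.23, adjusted p = 0.000185), fell with age in glp-1 by 2.04 (adjusted p = 8.16e-06), and at D6 was at a log2 fold change of -0.05 (adjusted p = 0.841). As the gene passed the detection rule through glp-1 D1 only, these p-values are no independent test. Its fall in wild type, 0.75, had overlapping groups and was lost without wild type D1 replicate 2 or wild type D6 replicate 1 (adjusted p = 0.068 and 0.0663). Gene ins-3 (II:5990099-5990768, minus strand) was at 1.02, 1.54 and 1.58 FPKM in wild type D1, 1.48, 2.23 and 2.66 in wild type D6, 6.39, 2.42 and 3.05 in glp-1 D1, and 4.35, 5.03 and 6.65 in glp-1 D6. It was higher in glp-1 at both ages (0.98 and 1.03, adjusted p = 0.00286 and 0.00206), with groups that did not overlap. Scaled to muscle and neuron genes, neither difference of ins-3 was called (0.44 and 0.16, adjusted p = 0.114 and 0.559), and its changes with age were (0.995 in wild type and 0.71 for glp-1). Its change with age in glp-1 was 0.42 (adjusted p = 0.187), and without glp-1 D1 replicate 1 it passed (adjusted p = 0.0105).

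Gene ins-22 (III:10026289-10026686, plus strand) rose with age in wild type by 1.42 and in glp-1 by 1.78 (adjusted p = 0.000517 and 7.95e-05), from 1.22, 0 and 0.694 FPKM to 3.95, 2.46 and 3.24 in wild type and from 0.971, 1.75 and 1.33 to 7.45, 5.504 and 8.31 in glp-1. At D6 ins-22 was higher in glp-1 by 0.94 on the deposited scale and at -0.0096 when libraries were scaled to muscle and neuron genes. At D1 its difference of 0.58 was at an adjusted p of 0.0499 with overlapping groups, and of the 12 libraries, leaving out any of 9 ended the call (wild type D1 replicates 2 and 3, all 3 of wild type D6, glp-1 D1 replicates 2 and 3, and glp-1 D6 replicates 1 and 3). The adjusted p was then between 0.0518 and 0.266.

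Members of the family often lie next to each other, and members within 30000 bases of a neighbour form 7 groups that hold 25 of the 40 genes. On chromosome I at 14012369-14037777 lie ins-24 to ins-30 (ins-25 was not detected). The 6 detected genes ins-24, ins-26, ins-27, ins-28, ins-29 and ins-30 were each higher in glp-1 at D1, by 0.73 to 1.36, and at D6, by 1.02 to 1.64, and none was called with age in either genotype or for a difference of the 2 age changes. The steadiest was ins-26, at 2.49, 1.91 and 2.35 FPKM in wild type D1, 2.20, 2.21 and 1.69 in wild type D6, 6.82, 7.19 and 6.03 in glp-1 D1, and 8.56, 7.90 and 8.76 in glp-1 D6. The most abundant of them was ins-27, at 7.98, 7.84 and 4.69 FPKM in wild type D1, 4.67, 6.68 and 9.17 in wild type D6, 17.1, 18.9 and 20.4 in glp-1 D1, and 20.0, 18.3 and 25.0 in glp-1 D6. Neither gene's genotype groups overlapped at either age. On the muscle and neuron scale, ins-26 and ins-27 were still called higher in glp-1 at D1 (0.62 and 0.67) and at D6 (0.75 and 0.48), and ins-30 at D6 (0.80). The other genotype calls of these 6 genes were lost on that scale, where ins-24, ins-26, ins-27 and ins-28 were called as rising with age in both genotypes, by 0.51 to 1.17 in wild type.

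Among the others of that stretch, ins-28 was at 2.61 to 3.76 FPKM in wild type and 5.19 to 14.3 in glp-1. The D1 calls of the low genes ins-29 and ins-30 did not hold under every left-out library, in tests with fewer libraries. The call of ins-29 (1.05) was lost without wild type D1 replicate 1 (adjusted p = 0.0607), wild type D1 replicate 3 (0.129) or glp-1 D1 replicate 3 (0.153), and that of ins-30 (0.73) without glp-1 D1 replicate 2 (0.0705). Gene ins-24 was at 1.45, 0.756 and 0 FPKM in wild type D1 and 2.20, 1.33 and 3.89 in glp-1 D1, with groups that overlapped although the gene was called (adjusted p = 0.00807). Some age changes of these genes passed when a library was left out, namely ins-28 in glp-1 without glp-1 D1 replicate 3 or glp-1 D6 replicate 2 (adjusted p = 0.0209 and 0.0306), and ins-24 in wild type without wild type D1 replicate 1 (0.0333) and in glp-1 without glp-1 D1 replicate 3 (0.0424). The difference of age changes also passed for ins-26 without wild type D1 replicate 2 (0.0474) and for ins-30 without glp-1 D1 replicate 2 (0.0415).

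The neighbours ins-19 (II:3126037-3126441, minus strand) and ins-31 (II:3127041-3127831, plus strand) went in opposite directions with age. Gene ins-19 was at 0.329, 0 and 0 FPKM in wild type D1, 35.4, 33.01 and 37.4 in wild type D6, 11.5, 8.60 and 12.4 in glp-1 D1, and 108, 114 and 121 in glp-1 D6. No groups of ins-19 overlapped. It rose with age by 5.04 in wild type (SE 0.14, adjusted p = 8.34e-11) and by 3.29 in glp-1 (SE 0.14, adjusted p = 1.19e-09), and was higher in glp-1 by 3.41 at D1 (adjusted p = 3.97e-11) and by 1.67 at D6 (adjusted p = 6.27e-08). With 2 of the wild-type D1 libraries listed at 0, the size of a log2 change against that group depends on the pseudocount of 1.

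Gene ins-31 was at 20.5, 20.5 and 18.3 FPKM in wild type D1, 0, 0 and 0.0425 in wild type D6, 0.622, 1.64 and 2.27 in glp-1 D1, and 0.368, 0.0723 and 0 in glp-1 D6. Wild type D1 lay far above every other library. The gene passed the detection rule through that group only, so its p-values are no independent test. It was lower in glp-1 at D1 by 3.10 on the log2 scale (log2 fold change -3.10, SE 0.22, adjusted p = 1.11e-08) and was at 0.16 at D6 (adjusted p = 0.479). It fell with age by 4.35 in wild type (adjusted p = 7.15e-09) and by 1.09 in glp-1 (adjusted p = 0.00089). The pair ins-7 and ins-8, on chromosome IV at 9680337-9682845, both rose with age in both genotypes but differed in opposite directions between genotypes at D6.

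Gene ins-8 (IV:9680337-9680941, minus strand) was at 0.138, 0 and 0 FPKM in wild type D1, 0.112, 0 and 0 in glp-1 D1, 13.6, 23.02 and 10.1 in wild type D6, and 3.53, 6.85 and 4.78 in glp-1 D6. At D1 it was near 0 in all 6 libraries, and at D6 the 3 wild-type libraries lay above the 3 glp-1 libraries. Because it passed the detection rule through D6 libraries only, the p-values of its rise are no independent test. It rose by 3.91 in wild type (SE 0.25, adjusted p = 7.03e-08) and by 2.51 in glp-1 (SE 0.25, adjusted p = 3e-06), and was lower in glp-1 at D6 (log2 fold change -1.41, SE 0.25, adjusted p = 0.000133).

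**Figure D3:**
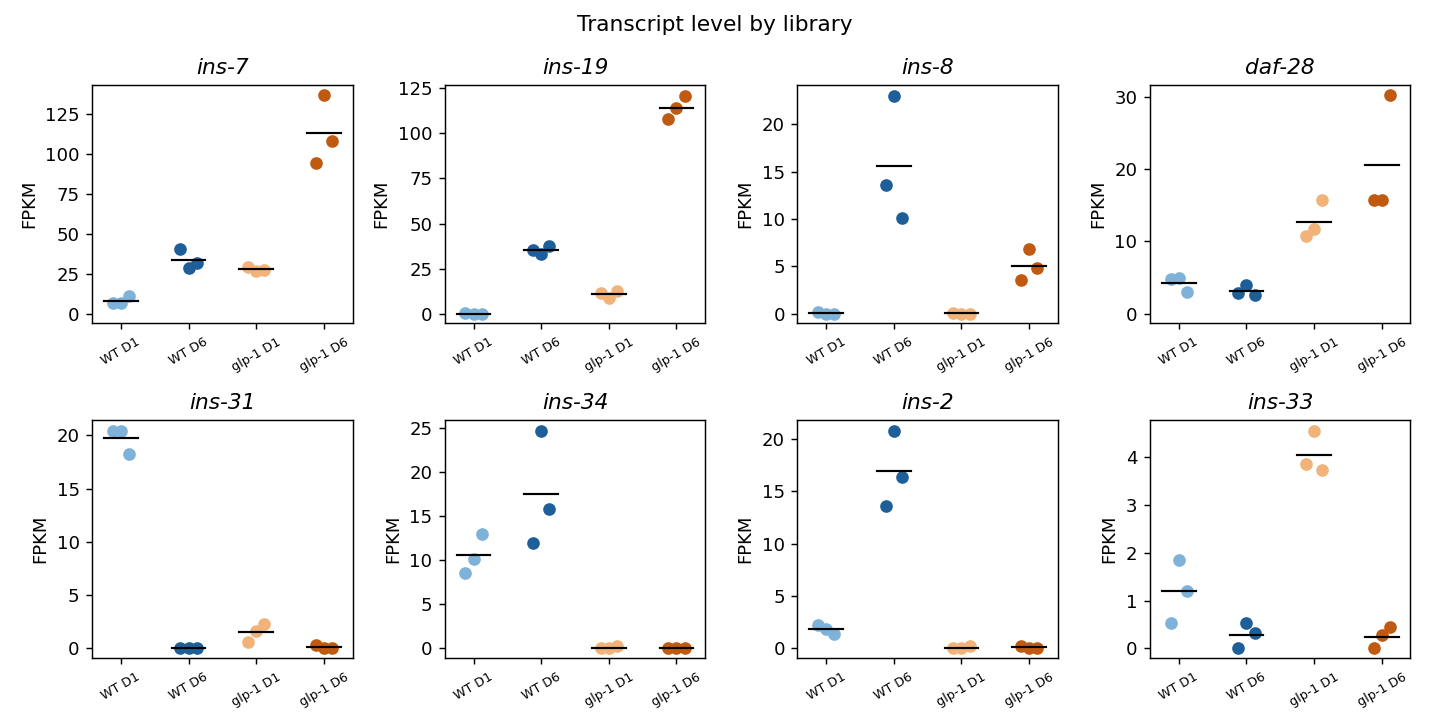
FPKM (y axis, own scale in each panel) of 8 genes by library, where each point is 1 library, bars are group means, and groups are wild type and glp-1 at D1 and D6. Libraries of ins-19 separate in all 4 groups, ins-8 is above 1 FPKM only at D6, ins-31 is high only in wild type D1, and ins-2 and ins-34 are near 0 in both glp-1 groups.

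Genes ins-34 and ins-2 were called lower in glp-1 at both ages, and were near 0 there. Both passed the detection rule through wild-type libraries only, so their p-values for genotype are no independent test. Gene ins-34 (IV:14106574-14107737, plus strand) was at 8.55, 10.1 and 13.01 FPKM in wild type D1 and 11.96, 24.7 and 15.8 in wild type D6, against 0, 0 and 0.224 in glp-1 D1, and it was listed at 0 in the 3 glp-1 D6 libraries. Gene ins-2 (II:5988524-5989426, plus strand) was at 2.26, 1.84 and 1.40 FPKM in wild type D1, 13.5, 20.8 and 16.3 in wild type D6, 0, 0 and 0.213 in glp-1 D1, and 0.259, 0 and 0.0870 in glp-1 D6. Neither gene's genotype groups overlapped. At D1 the log2 fold change of ins-34 was -3.42 (SE 0.22, adjusted p = 4.63e-09) and that of ins-2 was -1.40 (SE 0.18, adjusted p = 5.01e-06), and at D6 the adjusted p was 4.43e-10 for ins-34 and 6.49e-11 for ins-2. With age ins-2 rose in wild type by 2.65 (adjusted p = 8.84e-08). The rise of ins-34 in wild type, 0.64 (adjusted p = 0.0243), had overlapping groups and was lost without wild type D6 replicate 2 (0.113), wild type D1 replicate 1 (0.0957) or wild type D1 replicate 2 (0.0608).

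Wild type and glp-1 libraries differed in the germline and embryo lists alongside ins-2 and ins-34. The 7 early embryo genes summed to 11.4 to 13.1 FPKM in wild type D1 and 15.6 to 20.3 in wild type D6. They were all at 0 in glp-1 D1, and summed to 0 to 0.117 in glp-1 D6, where 6 of 7 were at 0 in all libraries. In wild type D6, 3 of the 7 (end-1, hlh-25 and hlh-27) were also at 0 in all libraries. Of the 4 tested, 2 rose and 2 fell with age in wild type (35.1% and 22.7% of all genes). Gene ins-31 was at 0 to 0.0425 FPKM in wild type D6, where the sums of the germline and embryo lists were highest. The part of germline and embryo RNA in the values of ins-2, ins-31 and ins-34 was not tested. Gene ins-34 overlaps nkcc-1 on the opposite strand, and since no strand setting is given in the sources used here, the 2 genes are uncertain one by one. The means of nkcc-1 were 53.3 and 60.7 FPKM in wild type D1 and D6 and 33.6 and 48.6 in the glp-1 groups, where ins-34 was at or near 0.

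The gene group on chromosome II at 5988524-6011321 holds ins-2 to ins-6 and ins-20. Its 5 detected genes did not move together, with ins-2 lower, ins-3, ins-4 and ins-6 higher and ins-5 not called at both ages. Gene ins-5 was the only one of the 26 called in none of the 4 comparisons, and stayed between 0.750 and 1.97 FPKM in all 12 libraries. With muscle and neuron scaling, ins-5 was called lower in glp-1 at D6 (-0.71) and as rising in wild type (0.59). Gene ins-17 (III:4476918-4477572, minus strand), one of the most abundant throughout, was at 12.64, 8.01 and 7.79 FPKM in wild type D1, 10.2, 9.91 and 13.7 in wild type D6, 14.2, 14.7 and 16.04 in glp-1 D1, and 21.4, 20.9 and 25.7 in glp-1 D6. On the deposited scale ins-17 was higher in glp-1 by 0.64 at D1 and 0.95 at D6 (adjusted p = 0.00288 and 0.000113), but at -0.054 and -0.13 when libraries were scaled to muscle and neuron genes. Its rise with age in glp-1, 0.56 (adjusted p = 0.0122), missed the threshold without glp-1 D6 replicate 3 (0.0522), and its change in wild type, 0.25, passed without wild type D1 replicate 1 (0.0181).

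Gene ins-10 (V:14033949-14034396, plus strand) overlaps vps-39 on the opposite strand. It was at 0.932, 0 and 0.453 FPKM in wild type D1, 0.536, 1.67 and 1.27 in wild type D6, 1.42, 0.748 and 2.64 in glp-1 D1, and 9.76, 11.1 and 13.2 in glp-1 D6. It was higher in glp-1 at D6 by 2.55 (SE 0.30, adjusted p = 2.06e-06) and rose with age in glp-1 by 2.30 (adjusted p = 2.64e-05), with no overlap between glp-1 D6 and any other library. In wild type its change with age of 0.58 was not called (adjusted p = 0.112) and passed without wild type D1 replicate 1 (0.0473) or wild type D6 replicate 1 (0.0491), and at D1 the difference of 0.82 was lost without wild type D1 replicate 2 (0.0921) or glp-1 D1 replicate 3 (0.1). Under the muscle and neuron scaling, that D1 difference was 0.43 and not called, and ins-10 was called as rising in wild type (1.07). Mean values of vps-39 went the other way between genotypes, at 53.6 and 88.7 FPKM in wild type D1 and D6 and 11.6 and 13.4 in glp-1.

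Genes ins-13, ins-23 and ins-32 stayed below 4 FPKM, and each passed the detection rule through 1 group, so their p-values are no independent test. Gene ins-13 (II:5544512-5544864, minus strand) was at 2.15, 3.07 and 2.26 FPKM in wild type D1, 0, 0.255 and 0 in wild type D6, 1.06, 1.61 and 0.646 in glp-1 D1, and 0.387, 0.530 and 0 in glp-1 D6. It overlaps acdh-2, whose mean fell from 32.4 to 1.598 FPKM in wild type, so the values of ins-13 are uncertain. Gene ins-23 (III:10028247-10028697, plus strand) was highest in wild type D6, at 2.96, 3.39 and 2.68 FPKM, and at most 1.06 in every other library, and ins-32 was at 2.11, 1.99 and 2.08 FPKM in glp-1 D6 and at most 1.82 elsewhere. For ins-13 the fall in glp-1, 0.69, was lost without glp-1 D1 replicate 2 (adjusted p = 0.0595) or glp-1 D6 replicate 3 (0.058). For ins-32 the D1 difference of 0.38 passed without wild type D1 replicate 2 (0.0154). Its age change in wild type passed without wild type D1 replicate 3 (0.0357), wild type D6 replicate 1 (0.0352) or glp-1 D1 replicate 2 (0.0404), and that in glp-1 without wild type D1 replicate 2 (0.0413) or glp-1 D1 replicate 2 (0.0234).

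The comparison of D6 with D1 asks which peptide transcripts change in early adulthood in each genotype. In wild type 8 genes rose (ins-2, ins-4, ins-7, ins-8, ins-19, ins-22, ins-23 and ins-34), 3 fell (ins-13, ins-31 and ins-33) and 15 were not called, where 57.7% of all genes were called, 35.1% as higher and 22.7% as lower. In glp-1 8 rose (ins-4, ins-7, ins-8, ins-10, ins-17, ins-18, ins-19 and ins-22), 3 fell (again ins-13, ins-31 and ins-33) and 15 were not called, where 54.7% of all genes were called, 39.1% as higher and 15.6% as lower. With replicate 2 as the lone glp-1 D6 library, again with the spread of the other groups, 6 rose and 2 fell in glp-1, and ins-4, ins-13 and ins-17 did not reach the threshold (adjusted p = 0.065, 0.228 and 0.161). Genes called higher in both genotypes with all libraries were ins-4, ins-7, ins-8, ins-19 and ins-22. All 3 falling genes had passed the detection rule through 1 D1 group in which they are high, and without the 5 such genes 7 rose and 0 fell in wild type and 8 rose and 0 fell in glp-1. Still among those rising in both was ins-8, which passed through D6 libraries only, so a rise was built into its selection. The D6 libraries lay above the D1 libraries for 8 genes and below for 3 in wild type (40.8% and 24.1% of all genes), and for 11 and 3 in glp-1 (42.3% and 17.5%). The median log2 fold change of the 26 was 0.15 in wild type and 0.47 in glp-1, against 0.13 and 0.20 over all genes. Scaled to muscle and neuron genes, 17 rose and 2 fell in each genotype, with higher calls at 87.3% of all wild-type calls and 88.7% of all glp-1 calls (60.7% and 71.4% as deposited). On that scale the medians of all genes moved to 0.86 and 0.48, those of the peptide genes were 0.87 and 0.76, and the muscle list itself fell with age as deposited (15 of 17 genes in each genotype).

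**Figure D4:**
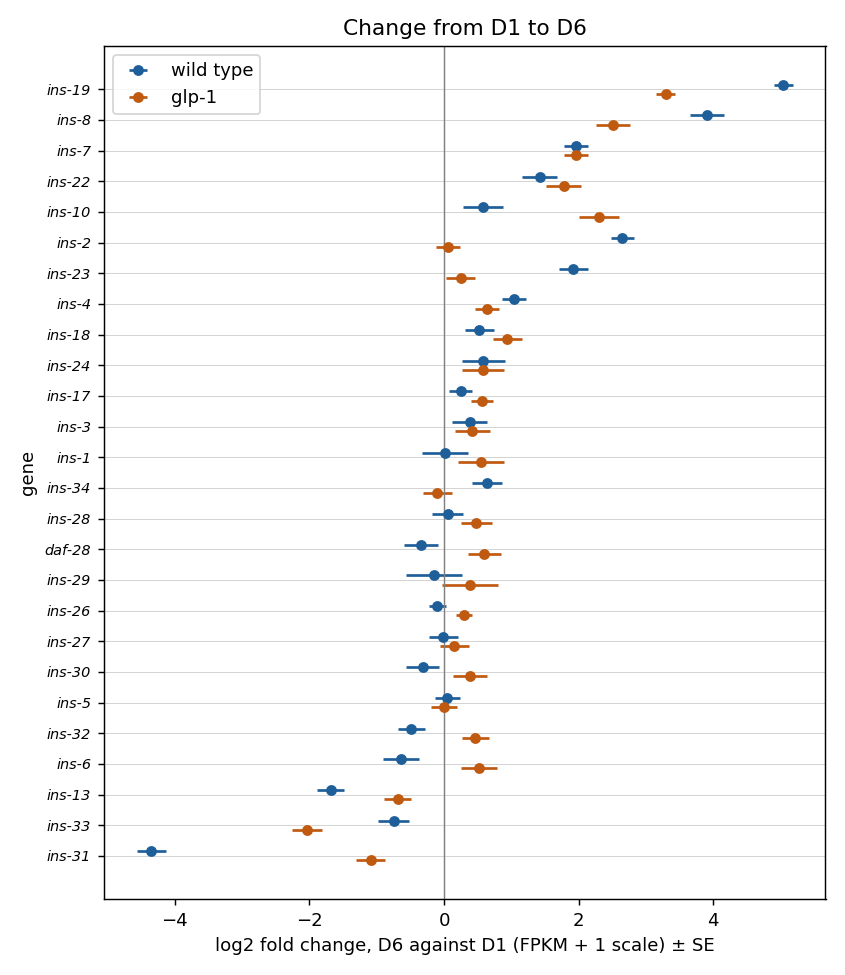
Log2 fold change of D6 against D1 (x axis, FPKM + 1 scale, bars are ± SE, 3 libraries in each group) for the 26 genes in wild type and glp-1. Genes ins-19, ins-8 and ins-7 lie far to the right in both genotypes, ins-31 lies far to the left in wild type, and ins-2 moved in wild type but stayed near 0 in glp-1.

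For 11 genes the change with age differed between genotypes, 6 more positive and 5 more negative in glp-1, where 47.5% of all genes differed, 30.9% and 16.6% in these directions. Of these 11, 5 (ins-13, ins-23, ins-31, ins-32 and ins-33) had passed the detection rule through 1 group, and without them 3 were more positive and 3 more negative. On the muscle and neuron scale, 5 were more positive and 7 more negative, and over all genes more positive calls went from 65.0% of calls to 31.4%. The comparisons share libraries, so a gene's differences are not independent.

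Summed over all 40 genes, transcripts were 88.6 ± 4.33 FPKM in wild type D1 (SD, n = 3), 173 ± 12.4 in wild type D6, 148 ± 12.03 in glp-1 D1 and 394 ± 37.7 in glp-1 D6. Every wild-type D1 library was below every library of the other groups, glp-1 D6 was above all, and wild type D6 (163 to 187) did not overlap glp-1 D1 (140 to 161). With muscle and neuron scaling, the sums of the genotypes overlapped at both ages, at 89.7 to 95.4 in wild type D1 against 86.0 to 97.6 in glp-1 D1, and at 299 to 344 in wild type D6 against 277 to 360 in glp-1 D6, while D6 stayed above D1. Genes ins-7 and ins-19 made up 9.26 ± 3.10% of this sum in wild type D1, 40.0 ± 6.81% in wild type D6, 26.3 ± 2.18% in glp-1 D1 and 57.6 ± 3.57% in glp-1 D6. The other 38 genes summed to 80.5 ± 6.45, 105 ± 19.4, 109 ± 11.2 and 167 ± 23.6 FPKM in that order.

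**Figure D5:**
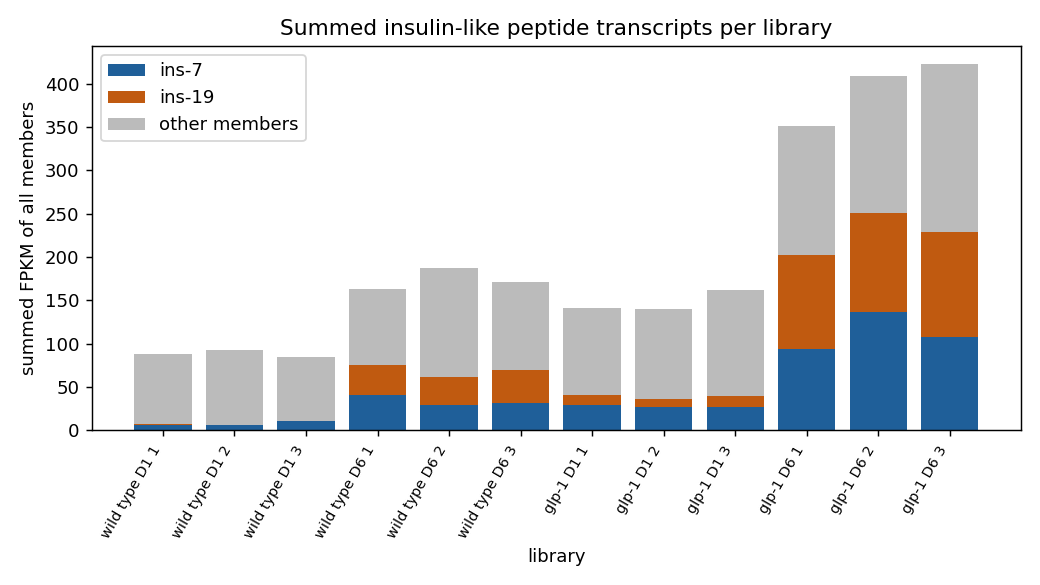
Stacked bars of summed FPKM of the 40 insulin-like peptide genes in each of 12 libraries, with ins-7, ins-19 and all other members. The 3 glp-1 D6 bars, between 351 and 422 FPKM, are the tallest, and ins-7 and ins-19 fill more than all other members together in them.

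The genes that read out these peptides differed less uniformly. Of 16 genes from the receptor to DAF-16, chosen with earlier results of these data known, 5 were higher and 10 lower in glp-1 at D1 and 5 higher and 9 lower at D6. Over all genes 41.3% were higher and 48.1% lower at D1, and 44.4% and 45.4% at D6. Transcripts of daf-2, the receptor, averaged 57.1 FPKM in wild type D1, 66.2 in wild type D6, 22.1 in glp-1 D1 and 38.99 in glp-1 D6, with log2 fold changes in glp-1 of -1.33 at D1 and -0.75 at D6. The inhibitory phosphatase gene daf-18 averaged 254, 340, 3.27 and 6.24 FPKM in the same order (-5.90 at D1), and the kinase gene age-1 averaged 32.05, 33.8, 3.42 and 3.57 (-2.90 at D1). The kinase genes akt-1 and akt-2 went in opposite directions, from -1.41 for akt-1 to 1.88 for akt-2 at D1, and daf-16 itself was higher by 0.35 at D1 and 0.19 at D6. On libraries scaled to muscle and neuron genes, daf-16 was at -0.40 and -0.96.

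The kinase gene sgk-1 was the most raised at D6 (2.06), followed by akt-2 (1.94), ist-1 was raised at D1 (1.78), and prmt-1 at D1 (-4.23) and hcf-1 at D6 (-4.16) were lowest after daf-18. With age 7 of the 16 rose and 1 fell in wild type (35.1% and 22.7% of all genes), and 11 rose and 0 fell in glp-1 (39.1% and 15.6%). Under the muscle and neuron scaling, 16 rose in wild type and 15 in glp-1. Of 10 genes for cleavage and vesicle release of peptides, 7 were higher and 2 lower in glp-1 at D1 and 8 higher and 2 lower at D6 (over all genes 41.3% higher and 48.1% lower at D1, 44.4% and 45.4% at D6), led at D1 by ida-1, which encodes a dense-core vesicle protein (1.47), and at D6 by the convertase gene aex-5 (2.28), with the convertase gene egl-3 at 1.46 and 2.02. The lower genes at both ages were asna-1 (-0.29 and -0.21) and bli-4 (-0.31 and -0.41). Scaled to muscle and neuron genes, 5 of these 10 were higher and 4 lower at D1, and 5 higher and 3 lower at D6. Of 14 genes that DAF-16 raises, 12 were higher and 1 lower at D1, and 13 higher and 1 lower at D6. The lower gene at both ages was sip-1, at -10.41 and -8.37, the largest change of that list. The highest at D1 were the metallothionein gene mtl-1 (5.34) and the ferritin gene ftn-1 (4.31), and at D6 fat-5 (4.10) and ftn-1 (3.91). Of 9 genes that DAF-16 lowers, 7 were tested, and all 7 were higher at D1, most so dod-17 (2.67) and dod-23 (2.57), and 4 at D6, most so dod-19 (4.32) and the yolk protein gene vit-5 (2.77). Scaled to muscle and neuron genes, 12 of the raised list were higher and 1 lower at D1, and 11 and 1 at D6. Of the lowered list, 7 were higher at D1 on that scale, and 3 were higher and 2 lower at D6. These lists were chosen with earlier results of these data known, so their counts are descriptions.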

How the data were processed

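RNA of whole worms was sequenced in 12 libraries. The values are FPKM as deposited by the authors, with 1 value per gene and 20257 genes per file. HISAT2 2.0.4, DESeq2 1.6.3 and build WBcel235 are named in the submitters' processing notes, with the program behind FPKM, the annotation and strand not given in the sources used here. Coordinates came from a WBcel235 annotation, in which 39 of the 40 genes matched by symbol. Blank lines were dropped, no 2 libraries were identical, and none of 12 widely used genes was at 0. The members and lists were chosen with earlier results of these data known. Genes with at least 1 FPKM in 3 libraries (13614) were tested with limma 3.58.1 (R 4.3.3), applied to log2(FPKM + 1) with a variance trend and robust moderation, 1 mean per group over all libraries, 8 residual degrees of freedom and two-sided p-values adjusted by Benjamini-Hochberg over all genes tested. Fold changes on this scale understate low genes. The fit was tested on simulated data. Named genes were all members that met the rule, the main signalling genes, and, for the genotype comparisons, the 2 called genes of each list with the largest changes each way. Alternatives were another pseudocount, other filters, another scaling, quantile normalization, a plainer fit, fits of the 2 groups alone, a replicate block and left-out libraries. Depth is an estimate, so no counting intervals are given.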

Additional observations from a re-analysis of the deposited data

Results flagged for a closer look

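The change from D1 to D6 differed between the genotypes for 11 of the 26 genes (42.3%) by the interaction term of the limma fit. Over all genes 47.5% differed, 30.9% as positive and 16.6% as negative, so the peptide genes were not called more often. The term is given here as the glp-1 change less the wild-type change on the log2(FPKM + 1) scale. It was positive for ins-31 at 3.27 (adjusted p = 4.22e-06), ins-10 at 1.73 (0.00459), ins-6 at 1.16 (0.0245), ins-13 at 1.00 (0.0126), ins-32 at 0.95 (0.0152) and daf-28 at 0.94 (0.0413). It was negative for ins-2 at -2.59 (5.01e-06), ins-19 at -1.75 (1.74e-05), ins-23 at -1.67 (0.000671), ins-8 at -1.40 (0.00631) and ins-33 at -1.29 (0.0057). Of these, ins-13, ins-23, ins-31, ins-32 and ins-33 had passed the detection rule through the 1 group in which they are high, so a difference was built into their selection and their p-values are no independent test. Without them 3 genes were positive and 3 negative. For ins-31 both genotypes fell, from a higher level in wild type, and for ins-2 wild type rose while glp-1 stayed near 0.

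The call of daf-28 was lost without wild type D1 replicate 1 (adjusted p = 0.0862) or 2 (0.0902), wild type D6 replicate 1 (0.0801) or 3 (0.0902), glp-1 D1 replicate 1 (0.0923) or 2 (0.082), or glp-1 D6 replicate 3 (0.0806). That of ins-6 was lost without wild type D1 replicate 2 (0.0501), wild type D6 replicate 1 (0.0601), glp-1 D1 replicate 1 (0.0553) or 2 (0.0534), or glp-1 D6 replicate 2 (0.0516) or 3 (0.0515). Without replicates 1 and 3 of glp-1 D6, a choice made after seeing the data that leaves 1 library there with the spread of the other groups, ins-8 was at 0.0752, ins-32 at 0.0746 and daf-28 at 0.148. Gene ins-34 was not called, and passed without wild type D1 replicate 3 (0.0398) or wild type D6 replicate 1 (0.0154). On the muscle and neuron scale, ins-34 (-1.49, adjusted p = 0.00108) and ins-4 (-0.83, 0.0143) were called and daf-28 was not (0.65, 0.121), which gave 5 positive and 7 negative calls.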

How the results depend on the processing

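Over the detected peptide genes, 1614 of the 1690 gene-level values under left-out libraries kept their call or lack of one. Another 48 lost the call, 28 gained it and none reversed. A reversal here is a change of sign with a call in either fit, so changes of sign between uncalled values were not counted. Scaling libraries to muscle and neuron genes moved most: genes higher in glp-1 went to 7 at D1 and 10 at D6, and genes rising with age to 17 in wild type and 17 in glp-1. On that scale values reversed for ins-17 (-0.054 at D1, -0.13 at D6), ins-4 (-0.42 at D6), ins-5 (-0.71 at D6), ins-22 (-0.0096 at D6), ins-26 (0.51 with age in wild type) and ins-27 (0.74 with age in wild type), and for daf-16 (-0.40 at D1, -0.96 at D6), sgk-1 (0.71 with age in wild type) and ftt-2 (-0.11 at D1, -0.36 at D6, 0.59 with age in wild type, 0.34 in glp-1, -0.26 for the difference). Of the 16 receptor pathway genes, those higher became 3 at D1 and 2 at D6, with age in wild type 16 rose and 0 fell, and the difference between age changes was 1 higher and 7 lower. Of all 13614 genes on that scale, 3490 were higher at D1 and 4179 at D6, and 9432 rose and 1366 fell with age in wild type. For the difference, 2318 were higher and 5053 lower. Under quantile normalization daf-2 was at 0.14 at D6 and ftt-2 at 0.18 with age in glp-1, and 2 pathway genes fell in wild type and 1 in glp-1. Requiring 1 FPKM in 6 libraries removed the single-group genes, which left 2 lower at D1 and 0 falling with age in either genotype, and 3 higher and 3 lower for the difference. That difference was also 3 and 3 with pseudocount 0.1, and 3 were higher under quantile normalization. With the 6-library filter, the plainer fit or only the 2 groups compared, 1 pathway gene fell in glp-1. Leaving out single libraries gave 0 to 1 pathway genes falling in glp-1 and 1 to 3 lower for the difference. The causes were not tested.

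The replicate numbers did not pair the samples: 18 same-numbered pairs correlated between -0.14 and 0.15, 1 of them over 0.1. In 4 of the 18 pairs the same number gave the best correlation. With a replicate block 5 peptide genes fell with age in wild type, and the counts of the other comparisons stayed within 1.5 times. Levels under about 1 FPKM rest on few fragments, so small differences there were not detectable at this depth.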
